A study of Mus musculus with 8 samples.

Results

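The regions described here are 300 H3K4me3 peaks whose tags were higher after curdlan and changed little when FK506 was added to curdlan. They were chosen on measured values, from 11507 of the 14872 peaks called in curdlan-treated cells. These 11507 reference peaks held 200 or more tags, the sequenced ends that MACS counts in a peak, and overlapped a peak in both other H3K4me3 lists. At each of them the tags per 1000000 ChIP tags of the library, called normalised tags here, were compared as log2 ratios, with all overlapping peaks of a list summed and the median over the reference peaks subtracted. Peaks with a log2 ratio of curdlan with FK506 over curdlan between -0.2 and 0.2 were kept, which left 9811, and the 300 with the highest log2 ratio of curdlan over NT are the resistant rises. They are 2.61% of the reference peaks.

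The study asked which genes NFATc2 binds and regulates in dendritic cells (DCs) activated through dectin-1. It also examined whether H3K4me3 at such genes depends on NFAT. D1 cells, a long-term DC line from C57BL/6 mouse spleen, were left untreated (NT), treated for 2 h with 10 μg/ml curdlan, or treated for 2 h with curdlan and FK506. The FK506 dose of these libraries is not given in the labels, which also do not say whether these cells carried the V5 transgene. A separate ChIP used D1 cells that stably carried V5-tagged NFATc2 from a lentivirus, after 30 min of curdlan, so NFATc2 and H3K4me3 were measured at different times. These cells had been sorted for low GFP. Since every condition is a single ChIP library with its input, the spread between replicates is unknown and no p-value is given. In bulk ChIP, more cells that carry the mark and more mark per cell cannot be told apart.

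H3K4me3, the trimethylation of lysine 4 on histone H3, marks the nucleosomes around active gene starts, and its level and width usually grow with transcription. Curdlan is a β-glucan that binds dectin-1, a C-type lectin receptor that signals through Syk along separate branches. One branch runs through CARD9, BCL10 and MALT1 to NF-κB, another through calcium and calcineurin to NFAT, and others to MAP kinases and AP-1. FK506 with its binding protein FKBP12 blocks calcineurin, which keeps NFAT phosphorylated and outside the nucleus.

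The 6 gene starts of resistant rises that hold the NF-κB letters GGGANTTTC between 250 bases upstream and 50 bases downstream are shown because 5 of them belong to genes of the lists described later. Each line gives 41 bases of mm9 (NCBI mouse build 37), written 5′ to 3′ along the strand of the gene, with the matched letters in capitals. In Cd86 the match is on the opposite strand, and in Nfkbia the first of 2 matches is shown. The Nfkbia start lies 645 bp outside its member. The start and the match shown lie in a separate peak, chr12:56593131-56595039, that was lower with curdlan than in NT.
Cxcl2 chr5:91332812-91332852 (+): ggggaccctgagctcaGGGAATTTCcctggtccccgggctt
Nfkb1 chr3:135354456-135354496 (-): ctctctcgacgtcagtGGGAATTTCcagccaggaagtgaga
Batf chr12:87027378-87027418 (+): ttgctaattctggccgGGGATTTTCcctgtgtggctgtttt
Nfkbia chr12:56593723-56593763 (-): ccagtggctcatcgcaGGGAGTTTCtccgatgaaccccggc
Aebp2 chr6:140573260-140573300 (+): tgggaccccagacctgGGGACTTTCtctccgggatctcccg
Cd86 chr16:36666367-36666407 (-): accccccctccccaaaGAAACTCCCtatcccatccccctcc
The first base of the match lay 69 bases before the start of Cxcl2, at position -69, and at position 30 of Nfkb1, -225 of Batf, -113 of Nfkbia, -154 of Aebp2 and -228 of Cd86.

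The promoters of the 4 highest-ranked members with a start of a protein-coding gene within 1 kb are shown because they differ in base composition. Capitals mark each CpG, the dinucleotide that is dense in CpG island promoters.
Cflar chr1:58787146-58787445 (+): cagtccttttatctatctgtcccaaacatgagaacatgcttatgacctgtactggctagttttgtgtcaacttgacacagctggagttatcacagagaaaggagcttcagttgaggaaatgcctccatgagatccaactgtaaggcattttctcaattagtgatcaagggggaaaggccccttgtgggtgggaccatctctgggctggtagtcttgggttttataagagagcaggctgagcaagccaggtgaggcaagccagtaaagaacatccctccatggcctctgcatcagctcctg
Cd83 chr13:43880304-43880603 (+): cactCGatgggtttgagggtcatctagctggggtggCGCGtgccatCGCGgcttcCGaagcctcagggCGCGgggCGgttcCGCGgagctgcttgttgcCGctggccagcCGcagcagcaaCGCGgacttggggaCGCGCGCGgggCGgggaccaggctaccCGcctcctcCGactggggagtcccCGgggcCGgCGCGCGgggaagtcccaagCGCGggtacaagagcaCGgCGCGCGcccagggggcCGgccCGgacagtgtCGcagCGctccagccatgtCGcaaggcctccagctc
Plcb2 chr2:118535428-118535727 (-): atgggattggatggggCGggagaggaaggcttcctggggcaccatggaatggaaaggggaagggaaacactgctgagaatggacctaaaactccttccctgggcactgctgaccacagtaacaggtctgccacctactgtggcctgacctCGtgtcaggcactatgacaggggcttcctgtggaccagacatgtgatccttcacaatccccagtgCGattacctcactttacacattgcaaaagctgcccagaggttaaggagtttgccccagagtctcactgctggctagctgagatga
Fam167a chr14:64054981-64055280 (+): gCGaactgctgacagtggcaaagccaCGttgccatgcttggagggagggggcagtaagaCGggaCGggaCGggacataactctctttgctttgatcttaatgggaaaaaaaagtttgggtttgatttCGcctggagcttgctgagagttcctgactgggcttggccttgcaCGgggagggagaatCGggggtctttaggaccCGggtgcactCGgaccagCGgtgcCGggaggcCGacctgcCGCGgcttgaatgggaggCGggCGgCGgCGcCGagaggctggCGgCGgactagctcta
Over the same 300 bases the Cflar start held 0 CpG, Plcb2 held 3, Fam167a held 22 and Cd83 held 38. The Cflar start shown is an internal one, annotated to a putative transcript within the gene. None of these promoters holds GGGANTTTC, which says only that those letters are not in these windows. Other forms of NF-κB site were not searched.

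The highest-ranked member was at Cflar (ENSMUSG00000026031.9), which encodes c-FLIP, an inhibitor of caspase-8 at death receptors. It spanned chr1:58781458-58788526 and held 217 tags in NT, 3062 with curdlan and 2374 with FK506 added. As normalised tags these were 13.0, 144 and 122, so both treated libraries were far above NT. The log2 ratio of curdlan over NT was 3.61, with a 95% exact interval of 3.41 to 3.82 that covers the counting of tags only. That of FK506 over curdlan was -0.20 (-0.28 to -0.12), at the edge of the permitted band. A separate member at the 5′ part of the same gene, chr1:58769947-58774187, held 80.6, 115 and 117 normalised tags, with a log2 ratio of curdlan over NT of 0.66.

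The peak ranked 2 lay in intergenic sequence at chr16:84702077-84709692, with Mir155 as the nearest annotated start at 3576 bp. Mir155 encodes miR-155, a microRNA induced in activated myeloid cells and lymphocytes. Its mature sequence from RefSeq (table of build GRCm38.p6) is given with the seed, bases 2 to 8, in capitals.
mmu-miR-155-5p: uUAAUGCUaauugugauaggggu
Its tags numbered 246 in NT, 2588 with curdlan and 2317 with FK506 added, or 14.8, 122 and 119 normalised tags. The treated libraries were almost equal, with a log2 ratio of FK506 over curdlan of 0.01 (-0.07 to 0.09).

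Cd83, a surface marker of DC maturation, ranked 3 at chr13:43879357-43886361. It held 16.4 normalised tags in NT, 133 with curdlan and 127 with FK506 added. With the median subtracted, the ratio of curdlan over NT was 8.99-fold. Plcb2, a phospholipase C, ranked 4 on few tags, with 37 in NT, 335 with curdlan and 303 with FK506. Its interval for the log2 ratio of curdlan over NT was accordingly wide, 2.48 to 3.50 around 2.97. Fam167a ranked 5, with 10.5, 45.0 and 39.8 normalised tags.

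Cxcl2, a neutrophil chemokine, ranked 7 with 10.7 normalised tags in NT, 40.4 with curdlan and 35.9 with FK506 added. Rgs1, a brake on G protein signalling, held 5.88, 19.9 and 19.9, the same level in both treated libraries. Stat5a, a transcription factor of cytokine signalling, held 36.8, 118 and 103, with a log2 ratio of FK506 over curdlan of -0.16 (-0.24 to -0.07). Adm, the gene of the vasodilator peptide adrenomedullin, held 3.30, 10.6 and 10.9. Tnfaip3, which encodes the ubiquitin-editing inhibitor of NF-κB signalling A20, held 74.7, 224 and 221. At each of these 5 genes NT stood apart, while the treated libraries lay close together, as the choice of members requires. Over all members and with the median subtracted, 58 of 300 had a curdlan level at least 2-fold above NT and 7 at least 4-fold.

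**Figure D1:**
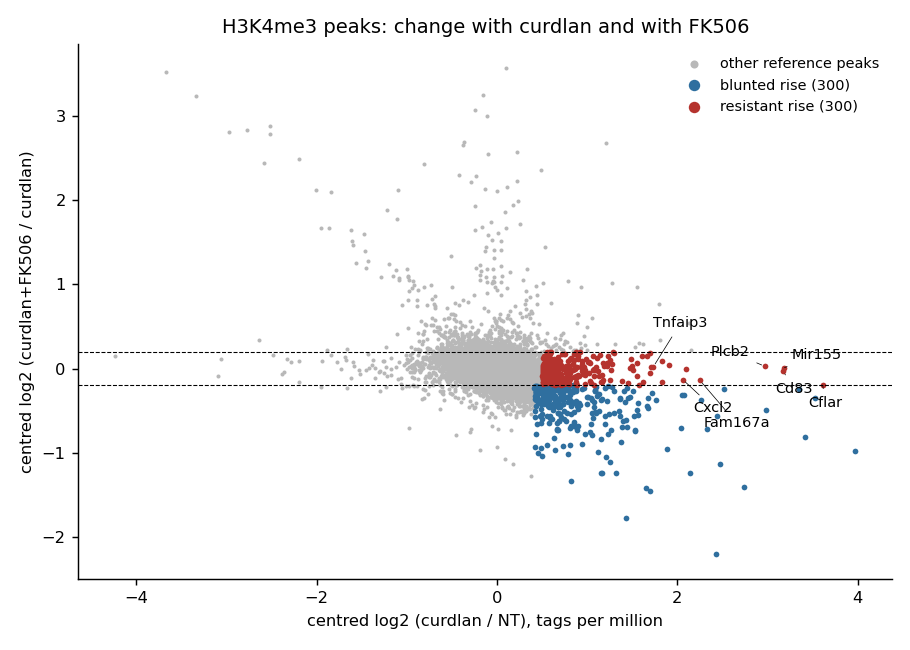
Centred log2 ratio of curdlan over NT (x axis) against that of curdlan with FK506 over curdlan (y axis), both in normalised tags, for 11507 reference peaks. Red points are the 300 resistant rises between the dashed lines at -0.2 and 0.2, blue points are 300 blunted rises, and Cflar, Mir155, Cd83 and Plcb2 stand farthest right among the red points.

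**Figure D2:**
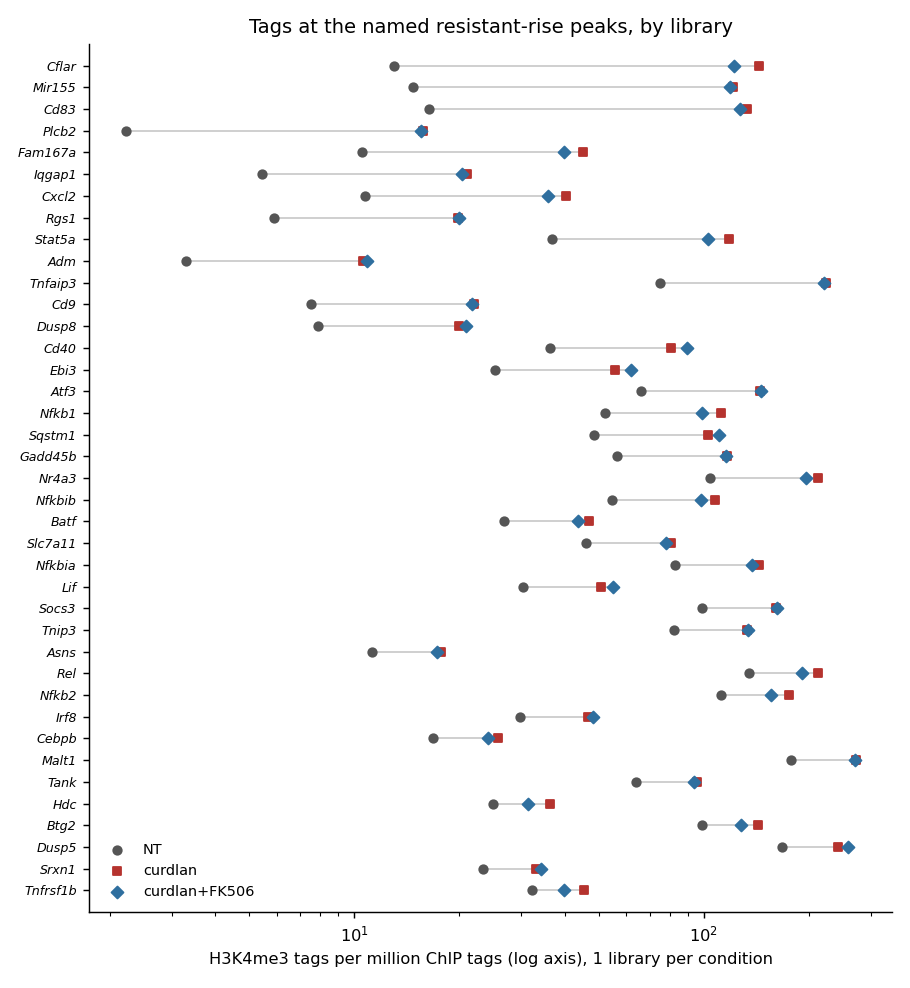
Normalised H3K4me3 tags (log axis, 1 library per condition) at the members of the listed genes that were named and at the 12 highest-ranked members, ordered by the log2 ratio of curdlan over NT. Grey circles (NT) lie to the left of the red squares (curdlan) and blue diamonds (curdlan with FK506) in every line, because the members were chosen that way.

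Members just inside and just outside the thresholds had near-equal values. At the end of the ranking Thap4, Csnk1e and Fdx1l were inside, with log2 ratios of curdlan over NT of 0.50 each, and Slc1a4, 1300001I01Rik and Gnl2 were outside, also at 0.50. At the lower edge of the band Dapp1, a peak at Gm15334 and Cflar were inside at -0.20, and Sms, Bcor and Dyrk2 were outside, at -0.20 each. At the upper edge Ebi3, Rap1b and St3gal6 were inside at 0.20, 0.20 and 0.19, and Ipo4, Havcr2 and Rps6ka2 outside at 0.21 each. The members with the fewest curdlan tags were at Pkd1l3 (205), Abcb1a (207) and Gli1 (209). Peaks at Raph1 (198), Mast2 (194) and Nfkbiz (192) met the other criteria and were left out for their tags. The peak left out at Nfkbiz, which encodes the nuclear inhibitor IκBζ, was a small one with a log2 ratio of curdlan over NT of 1.42. The reference peak at a start of the same gene held 1791, 2863 and 2699 tags, with a ratio of 0.47, and was not a member.

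Of 595 reference peaks with a curdlan over NT ratio at or above that of the lowest member, 243 lay below the band, 300 within it and 52 above it. The 2 ratios share the curdlan library. Within the band, 187 members had a log2 ratio of FK506 over curdlan below 0 and 113 had one of 0 or above. The counting interval of that ratio had a median width of 0.27, and it lay wholly within the band for 103 of the 300 members. For the others the count of tags does not fix on which side of the band edge they fall.

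Genes of the NF-κB pathway were the list with the largest share at resistant rises. Of 30 listed genes with a start within 1 kb of a reference peak, 12 (40%) were at a resistant rise and 2 at one of 300 blunted rises, the reference peaks with the highest curdlan over NT ratio among those below the band. Over all 11496 genes at reference peaks the share at resistant rises was 2.83%, and that at blunted rises was 2.51%. The median log2 ratio of curdlan over NT was 0.51 over the 30 genes, beside 0.02 over all genes. The list and the members were chosen with earlier results of these data known, and the members were chosen on this contrast.

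**Figure D3:**
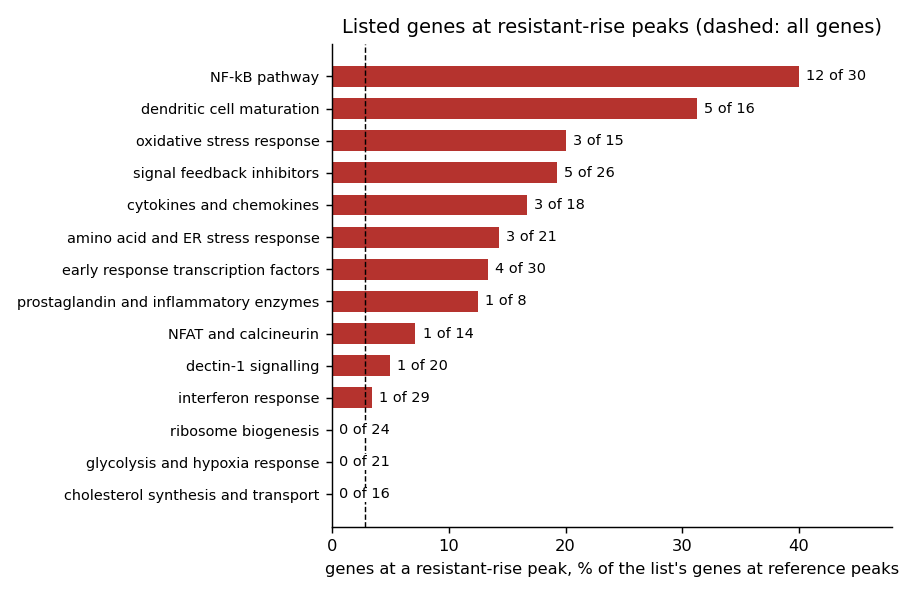
Share of the genes of each list at reference peaks that had a start within 1 kb of a resistant rise (bars start at 0, in percent, with counts beside them). The dashed line is the share over all genes, 2.83%, and the NF-κB pathway (12 of 30) and DC maturation (5 of 16) lists have the longest bars.

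Of the subunit genes, Nfkb1, Nfkb2 and Rel were at resistant rises. Rela and Relb were not, with log2 ratios of curdlan over NT of 0.08 and 0.42. Nfkb1 held 52.0 normalised tags in NT, 112 with curdlan and 98.7 with FK506 added, at chr3:135348549-135355577. Rel held 135, 212 and 191, and Nfkb2 held 112, 176 and 155. In these 3 genes the FK506 library lay slightly below the curdlan library, with log2 ratios of -0.14, -0.11 and -0.13.

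The genes of inhibitors of the pathway were also represented. Nfkbia (IκBα) held 82.8, 143 and 137 normalised tags, and Nfkbib (IκBβ) held 54.6, 108 and 98.0. Tnip3, whose product binds A20, held 82.3, 133 and 134. At all 3 the treated libraries were within 10 normalised tags of each other. That they lay close together and above NT follows from the choice of members. Among signalling components, Malt1, the paracaspase of the CARD9 complex, held 178, 272 and 271, and Tank, an adaptor of TRAF proteins and TBK1, held 63.8, 95.4 and 93.6. Ikbkb, which encodes the kinase IKKβ, held 51.8, 70.9 and 68.6. The curdlan and FK506 libraries were nearly equal at all 3, as the band requires. Bcl10 and Card9, of the same complex as Malt1, were not at members. Their log2 ratios of curdlan over NT were 0.37 at Bcl10 and -0.42 at the Card9 peak of most tags. Birc3, a ubiquitin ligase of TNF receptor complexes, held 65.4, 86.9 and 87.5. The member at Traf1, a TNF receptor adaptor, also covered the start of Gm13450 and held 22.1, 30.2 and 31.8. Traf1 had a larger peak that was not a member, with 45.9, 124 and 148 normalised tags, and its log2 ratio of FK506 over curdlan, 0.30, lay above the band. At Nfkbia a smaller peak beside the member held 26.5, 17.6 and 19.1, highest in NT. That smaller peak, not the member, holds the gene start and the NF-κB letters shown above. At Tank a further peak held 63.1, 59.3 and 53.8. Nfkbid and Traf6 were the 2 genes at blunted rises, with log2 ratios of FK506 over curdlan of -0.25 and -0.25.

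Of 16 DC maturation genes at reference peaks, 5 were at a resistant rise: Cd83, the costimulatory genes Cd40, Cd80 and Cd86, and the TNF receptor gene Tnfrsf1b. Cd40 held 36.3, 80.7 and 89.3 normalised tags, the FK506 library being the highest of the 3. Cd80 had the broadest member, 14835 bp at chr16:38450653-38465487, with 281, 389 and 402 normalised tags. Cd86 held 1980 tags in NT, 3477 with curdlan and 3056 with FK506, a log2 ratio of curdlan over NT of 0.60. Tnfrsf1b held 32.2, 45.5 and 39.9 normalised tags. Of the same list 1 gene was at a blunted rise, the TNF receptor gene Tnfrsf9, where a small peak held 5.04, 15.0 and 11.9. At its peak of most tags the level was lower with curdlan than in NT, with 31.3, 17.8 and 23.5. Ciita, the transactivator of MHC class II genes, was also lower with curdlan, with 172, 108 and 129. The log2 ratios of curdlan over NT at these 2 peaks were -0.67 and -0.53, and the median over the 16 genes was 0.40.

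Among early response transcription factors, 4 of 30 genes were at resistant rises and 4 at blunted rises. The resistant ones were the bZIP genes Atf3, Batf and Fosl1 and the nuclear receptor gene Nr4a3. Atf3 held 66.2, 144 and 145 normalised tags, Batf 26.8, 47.0 and 43.8, and Nr4a3 104, 212 and 196. Nr4a1, of the same receptor family as Nr4a3, was at a blunted rise, with a log2 ratio of FK506 over curdlan of -0.98 beside -0.07 at Nr4a3. Egr1, Egr2 and Maff were the other blunted ones, at -0.39, -0.28 and -0.21.

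Among inhibitors of signalling, 5 of 26 genes were at resistant rises. Dusp8, a phosphatase of MAP kinases, held 7.86, 19.9 and 20.9 normalised tags. Dusp5, of the same family, held 167, 242 and 258, with the FK506 library the highest in both genes. Gadd45b held 56.5, 117 and 115, Socs3, an inhibitor of cytokine receptor signalling, 98.9, 161 and 162, and Btg2 99.0, 143 and 128. Dusp2 and Dusp14 were at blunted rises, with log2 ratios of FK506 over curdlan of -0.35 and -1.25.

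Of 18 cytokine and chemokine genes at reference peaks, 3 were at resistant rises and 6 at blunted rises, beside the 2.51% of all genes at blunted rises. The full list holds 44 genes. The rest had no start within 1 kb of a reference peak, which must overlap a called peak in NT. Besides Cxcl2, the resistant ones were Ebi3, a subunit of IL-27 and IL-35, with 25.2, 55.6 and 62.0 normalised tags, and Lif with 30.4, 50.7 and 54.9. The blunted ones were Csf1, Ccl3, Ccl4, Ccl12, Ccl17 and Ccl22, with log2 ratios of FK506 over curdlan from -0.70 (Csf1) to -0.24 (Ccl22). The band sets a limit on that ratio, not on the share of the rise that was kept. At Ccl22 the log2 ratio over NT was 2.51 with curdlan and 2.27 with FK506 added, and at Csf1 it was 1.44 and 0.74. At the member of Hdc, a resistant rise, it was 0.69 and 0.52.

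Some genes of the stress response lists were at members, beside 2.83% of all genes at reference peaks. Most genes of these lists were not. The median log2 ratio of curdlan over NT was 0.11 over the oxidative stress genes and 0.15 over the amino acid and ER stress genes. Of 15 oxidative stress genes 3 were members: Sqstm1, the autophagy receptor p62, with 48.4, 103 and 110 normalised tags, Srxn1, a sulfiredoxin, with 23.3, 33.2 and 34.3, and Nfe2l2, the transcription factor NRF2, with 161, 208 and 205. Of 21 amino acid and ER stress genes 3 were members. Slc7a11, the cystine transporter, held 46.0, 80.4 and 77.9, Asns, asparagine synthetase, 11.2, 17.8 and 17.2, and Cebpb, a bZIP transcription factor gene, 16.8, 25.8 and 24.1.

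The remaining lists had 1 member or none. Irf8, a transcription factor of DC development, was the member among 29 interferon response genes, with 29.9, 46.6 and 48.1 normalised tags. Map2k3 was that among 20 dectin-1 signalling genes and Hdc, histidine decarboxylase, that among 8 inflammatory enzyme genes, with 24.9, 36.4 and 31.4 normalised tags at the Hdc member. Hdc had a further peak that was a blunted rise. Among 14 NFAT and calcineurin genes the member was at Fkbp1a, the gene of FKBP12. NT had 1229 tags there, curdlan 2106 and the FK506 library 1780. Nfatc1 and Nfat5 of that list were at blunted rises. So were the interferon response genes Rsad2 and Ifih1, the dectin-1 signalling gene Fyn and the enzyme gene Ch25h. None of 21 glycolysis, 16 cholesterol and 24 ribosome biogenesis genes was at a member. In all, 39 of 288 listed genes (13.5%) were at a member and 22 at a blunted rise, beside 2.83% and 2.51% of all genes at reference peaks. Some of these members also lay within 1 kb of a start of another gene, Sirt2 at Nfkbib, Adprh at Cd80, Mgat4b at Sqstm1 and Tmem189 at Cebpb, and their tags cannot be assigned to either gene.

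The choice of measure bears on these counts. With MACS fold enrichment, the ratio at the summit over the local input background, in place of tags, 22 of the 300 peaks were again chosen and 1 of the 30 NF-κB pathway genes was at a chosen peak. With tags per kb of called peak 123 were chosen again, with 9 NF-κB pathway genes. The centred fold enrichment was higher with curdlan than in NT at 65.3% of the members and the centred tags per kb at 88.3%. The median fold enrichment of the members was 38.4 in NT, 78.6 with curdlan and 61.4 with FK506 added, beside 41.4, 68.4 and 56.1 over the reference peaks. The ratio of ChIP to input tags also differed between the libraries, at 1.38, 2.29 and 1.96, and its part in these values was not tested.

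The members were broader with curdlan than in NT. Their median length was 2740 bp in NT, 3966.5 bp with curdlan and 3910 bp with curdlan and FK506, and 96.7% of them were longer with curdlan than in NT. The median ratio of lengths was 1.29, beside 1.03 over the reference peaks and 1.31 over the blunted rises. In all, the members covered 0.975 Mb in NT, 1.34 Mb with curdlan and 1.29 Mb with FK506. The mean density over that covered length was 12.8, 14.6 and 14.5 normalised tags per kb. The gain in tags therefore came with both a longer and a denser call, while over all reference peaks the mean density was 15.3, 13.3 and 13.3.

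Most of the added length lay on the side of the transcribed gene. At 228 members with protein-coding starts on 1 strand, the downstream edge moved outward from NT to curdlan by a median of 692.5 bp (quartiles 318 and 1400) and the upstream edge by 98 bp (quartiles -1.75 and 282). The downstream shift was the larger one at 198 of these (86.8%, 95% Wilson interval 81.8 to 90.6). Over 8414 reference peaks of the same kind the medians were 59 bp downstream and 18 bp upstream, and the downstream shift was larger at 57.3%. With curdlan and FK506 the members kept shifts of 604.5 bp downstream and 77.5 bp upstream from NT. The blunted rises had 547.5 bp downstream with curdlan and 193 bp with FK506. The shift of an edge depends on the tags by which the members were chosen, so these values are a description.

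**Figure D4:**
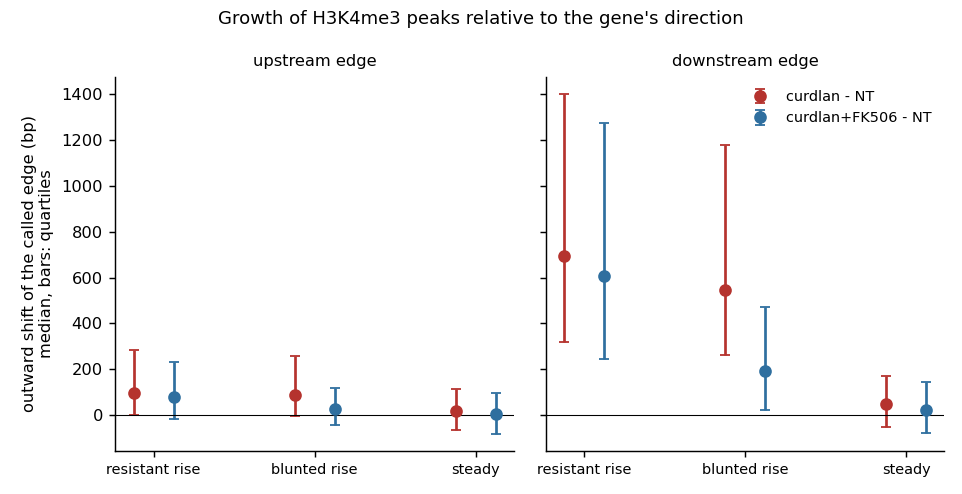
Outward shift in bp of the called upstream (left) and downstream (right) edge from NT to curdlan (red) and to curdlan with FK506 (blue), as medians with quartiles over 228 resistant rises, 226 blunted rises and 4580 steady peaks. The downstream edge moved by 692.5 and 604.5 bp at the resistant rises, and by 547.5 and 193 bp at the blunted rises.

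The broadest members grew by different amounts. Rel went from 5841 bp in NT to 12018 bp with curdlan and 8714 bp with FK506, and its density per kb was lower with curdlan than in NT, at 17.7 beside 23.1 normalised tags per kb. Dusp5 went from 6813 to 11971 and 11871 bp. Cflar, of shorter calls, went from 3706 to 7069 and 6199 bp and its density from 3.51 to 20.3 and 19.7 normalised tags per kb. The calls at Cd80 and Snrnp35 were already broad in NT, at 12856 and 10517 bp, and measured 14835 and 14054 bp with curdlan.

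A gene start lay within 1 kb of 86% of the members (95% Wilson interval 81.6 to 89.5), beside 86.4% of the reference peaks. By rank the share was 81% in the first 100 members, 85% in the next and 92% in the last. Of the 42 members with no start within 1 kb, the highest-ranked were those near Mir155, within an intron near Iqgap1, at Cd9 and at H2-Eb1. The peak nearest to Iqgap1, a scaffold protein of the cytoskeleton, lay 19975 bp from its start and held 5.46, 21.0 and 20.3 normalised tags. That at Cd9, a tetraspanin, lay 2069 bp away and held 7.50, 22.1 and 21.8, and that at H2-Eb1, an MHC class II chain, 5740 bp away with 7.50, 19.8 and 20.1.

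Some members were neighbours. Within 100 kb of each other lay 46 members in 22 groups of at most 3. The pairs named here were chosen after their values were seen. Kdm6b, which encodes a demethylase of H3K27, was the nearest gene of 2 members, with log2 ratios of curdlan over NT of 1.06 and 0.75. Stat5a and the adjacent Stat5b were both at members, at 1.83 and 0.85. Furin, a proprotein convertase, had 2, at 1.12 and 0.90. By chromosome, the share of reference peaks that were members ran from 1.04% on chromosome 13 to 3.56% on chromosome 4.

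The NFATc2-V5 peaks, which the choice of members did not use, overlapped 91 of the 300 members by at least 1 bp (30.3%, 95% Wilson interval 25.4 to 35.8). The list used here holds 9438 NFATc2 peaks. It is shorter than the total given in the study's text, and peaks outside it were not analysed here. The share over the reference peaks was 15.4%, over the steady peaks 11.7% and over the blunted rises 34.7%. The difference from the reference peaks depended on the measure. Of 300 peaks chosen by MACS fold enrichment in place of tags, 11.3% overlapped an NFATc2 peak (8.22 to 15.4), below the reference share of 15.4%. With only NFATc2 peaks at a p-value of 1e-10 or less the share was 18.7% of the members, 8.30% of the reference peaks and 27.7% of the blunted rises. The share did not follow the rank in order, at 38% in the first 100 members, 23% in the next and 30% in the last. The members were longer than other peaks, and length moved with this share. Among the shortest reference peaks, up to 2305 bp, it was 8.51% of 47 members and 6.99% of the other peaks. It was 10% of 40 members and 9.62% of other peaks up to 2918 bp, and 27.6% of 58 members and 14.9% up to 3879 bp. Among the longest it was 43.2% of 155 members (35.7 to 51.1) and 29.1% of the others (27.5 to 30.9), with 56.6% of the blunted rises (47.4 to 65.4).

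**Figure D5:**
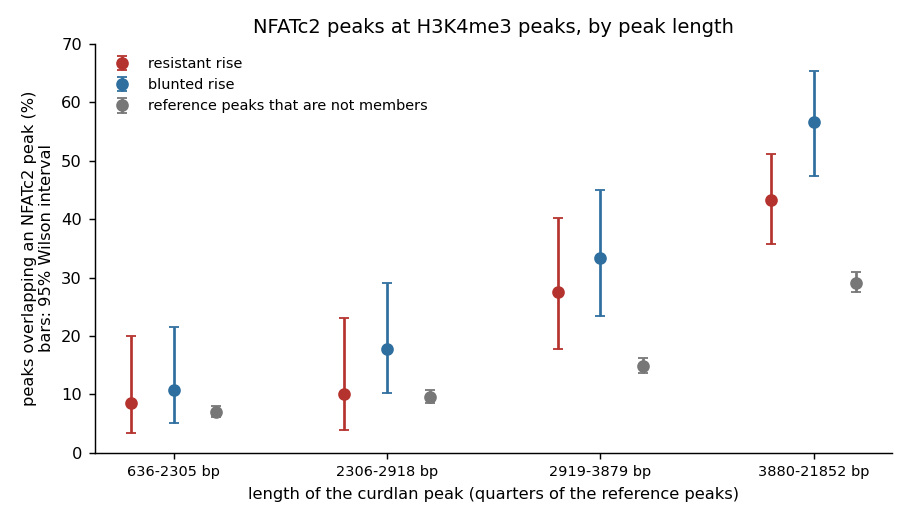
Share of peaks that overlap an NFATc2 peak, in percent with 95% Wilson intervals, for resistant rises (red), blunted rises (blue) and the other reference peaks (grey) in 4 classes of curdlan peak length. The share is higher in longer peaks in all 3 sets, reaching 43.2%, 56.6% and 29.1% in the longest class.

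The 6 members whose NFATc2 peaks held the most tags were near Snrnp35 (1007 NFATc2 tags), Srgn (518), Edn1 (383), AL606907.1 (371), Cdc42ep2 (337) and Gimap5 (326). The 61 bases around the NFATc2 summit, on the plus strand, are shown for the first 3 because their NFATc2 peaks held the most tags. These tags were not scaled by the length of the NFATc2 peak. Capitals mark GGAAA or its reverse complement, the core letters that NFAT proteins recognise.
Snrnp35 chr5:124928427-124928487 (+): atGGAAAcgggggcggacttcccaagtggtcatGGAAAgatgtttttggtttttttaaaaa
Srgn chr10:61969140-61969200 (+): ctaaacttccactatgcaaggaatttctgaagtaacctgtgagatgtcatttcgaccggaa
Edn1 chr13:42341274-42341334 (+): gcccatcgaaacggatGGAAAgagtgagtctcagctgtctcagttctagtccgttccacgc
Snrnp35 held 2 such cores, Edn1 held 1 and Srgn held none. At H3K4me3, the Srgn member, at the gene of the granule proteoglycan serglycin, held 113, 192 and 175 normalised tags. That nearest to Edn1, 52777 bp from the start of this endothelin gene, held 11.2, 14.8 and 14.1. The Snrnp35 member held 237, 314 and 273. The curdlan library was the highest at each of these peaks, and the FK506 library lay between it and NT. At Edn1 the counting interval of the log2 ratio of FK506 over curdlan, -0.27 to 0.21, does not fix that order. The members near AL606907.1 (22.4, 30.2 and 27.8) and Gimap5 (70.8, 96.5 and 84.8) had the same order. At Cdc42ep2 the FK506 library was the highest, with 96.6, 144 and 157.

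Letters near the NFATc2 summits were counted in each set. The core GGAAA, on either strand, lay within 30 bp of 60 of 103 summits inside members (58.3%, 48.6 to 67.3). That share was 56.8% over the reference peaks and 64.3% (55.1 to 72.6) over the blunted rises. GGAAAA lay within 100 bp of 41 of 103 summits inside members (39.8%, 30.9 to 49.5), beside 48.4% over the reference peaks and 60.7% (51.5 to 69.3) over the blunted rises. GGGANTTTC lay near 5 of the 103 (4.85%, 2.09 to 10.9), near 1.42% over the reference peaks and near 0 of 112 in the blunted rises, which allows a share of up to 2.68% by a floor of 3 counts and 3.32% by the Wilson interval. The AP-1 letters TGANTCA lay near 21.4%, 16.8% and 17.9%. These shares rest on few sites.

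At 249 gene starts of members, GGGANTTTC on either strand lay within 250 bases upstream to 50 downstream in 6 (2.41%, 1.11 to 5.16), the starts shown above. It lay in 1.10% (0.911 to 1.33) of the starts at reference peaks, in 1.13% of the starts of all protein-coding genes and in 1.25% (0.426 to 3.61) of those at blunted rises. Within 500 bases on both sides the shares were, in the same order, 5.62% (3.38 to 9.22), 3.32%, 3.72% and 3.33%. Over the whole curdlan peaks there were 58.2 copies per Mb in members, 49.0 in blunted rises, 36.4 in the reference peaks and 34.6 in steady peaks.

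The other motifs were searched in the same way. The cAMP response element TGACGTCA lay at 4.82% of the members' starts (2.78 to 8.23) and 3.33% of the reference starts. The NRF1 letters GCGCATGCG lay at 0.803% and 3.51%, and the ETS letters CCGGAAGT at 7.23% and 8.82%. GGAAAA lay at 19.7% and 18.5% and TGANTCA at 4.02% and 4.17%. The interferon letters GAAANTGAA lay at 0.803% and 1.65%, the E-box CACGTG at 10.0% and 9.82%, the SP1 letters GGGCGG at 72.7% and 67.5%, the YY1 letters AAGATGGCG at 6.02% and 4.14% and the STAT letters TTCNNNGAA at 6.02% and 6.55%. In the order of this paragraph, the shares at blunted rises were 5.00%, 2.08%, 4.17%, 17.1%, 8.75%, 2.08%, 8.33%, 74.6%, 2.08% and 5.83%. Over whole peaks the NRF1 letters had 7.46 copies per Mb in members, 7.88 in blunted rises and 26.4 in reference peaks.

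The median GC content was 50.1% in the members, 49.4% in the reference peaks and 50.5% in the blunted rises. The median ratio of observed to expected CpG was 0.415, 0.498 and 0.475, and it was over 0.6 in 17.7% of the members and 23.2% of the reference peaks. Across the 11507 reference peaks, which share the libraries and their depth, the Spearman correlation of the log2 ratio of curdlan over NT was 0.01 with GC content, 0.10 with peak length, 0.14 with tags and 0.17 with the CpG ratio.

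The ChIP libraries held 16662316 tags in NT, 21289349 with curdlan, 19468498 with curdlan and FK506 and 14377535 for NFATc2-V5, and 57.9%, 52.8% and 51.3% of the H3K4me3 tags lay in peaks. The median subtracted from the log2 ratio of curdlan over NT was -0.15, so before centring the members' median of 0.67 was 0.53. As a check of the cell type, 7 of 8 DC markers had a peak at a start in each H3K4me3 list, all but Flt3, with 498 to 4334 tags. Lck was the 1 of 4 T cell markers with a peak (328 to 494 tags) and Klf1 the 1 of 3 erythroid markers (350 to 432), while none of 4 B cell and 4 fibroblast markers had one.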

How the data were processed

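Peak lists of 4 ChIP-seq experiments in D1 cells were analysed: H3K4me3 in NT, curdlan and curdlan with FK506, and NFATc2-V5 with curdlan. The authors aligned the reads with bowtie to mm9. MACS then gave peaks for each library against its input (headers name version 1.4.2), at a p-value threshold of 1e-05, with a band width of 1000 bp for H3K4me3 and 300 bp for NFATc2. Per the file headers, ChIP tags numbered 14377535 to 21289349 and none were removed by the duplicate filter of MACS. The deposited counts of tags per peak are not normalized. The authors' fold enrichment is the ratio of tags at the summit to the local input background. The deposited score is -10 times the log10 of the p-value, and the FDR of the authors' lists is a percent.

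The members and gene lists were chosen with earlier results of these data known. Peaks were scaled by header tags and medians subtracted, with summed tags given beside length and density. Steady peaks had both log2 ratios between -0.2 and 0.2. Genes came from GENCODE vM1 (Ensembl 65, NCBI build 37), with starts within 1 kb of a peak. Named were the 30 highest-ranked of the 39 listed genes at members, the genes nearest to the 12 highest-ranked members, those next to each threshold, the 6 with most NFATc2 tags, the 4 broadest and the 4 highest-ranked without a start within 1 kb. Other genes of these lists, of the blunted rises and of neighbouring members were named to complete a count. Wilson and exact intervals cover counting error only, and tags are not independent molecules. With 1 library per condition there was no test. The choice of members was tested on simulated data with planted rises, the same peak edges in every list and counting noise only. Changes in called width and spread between replicates were not simulated. Analyses used pysam 0.24.0, scipy 1.17.1, pandas 2.3.3 and numpy 2.4.6 in Python 3.11.15.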

Additional observations from a re-analysis of the deposited data

How the results depend on the processing

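Of 300 members, the choice again took 166 with a band of 0.1, 123 with tags per kb, 22 with MACS fold enrichment and, by construction, 150 where 150 were taken. The median log2 ratio of curdlan over NT, 0.67, was 0.63 with 400 tags, 0.52 and 0.77 with bands of 0.1 and 0.3, 0.89 and 0.50 with 150 and 600 members, 0.77 with only the overlapping peak of most tags, 0.65 with one-to-one peaks, 0.52 with tags per kb, 0.82 with fold enrichment and 0.51 without centring. The length ratio of 1.29 was 1.21 and 1.36 with bands of 0.1 and 0.3, 1.45 and 1.21 with 150 and 600 members, 1.47 with only the overlapping peak of most tags, and 1.06 with both tags per kb and fold enrichment. The share with a gene start, 86%, was 79.7% and 92.7% with 100 and 400 tags, 89.5% with 600 members and 90% with stricter peaks. The share with an NFATc2 peak, 30.3%, was 25% with tags per kb, 18.7% with NFATc2 peaks at a p-value of 1e-10 or less (reference peaks 8.30%) and 11.3% with fold enrichment, where it fell below the 15.4% of the reference peaks instead of above. Median GC was 50.8% with tags per kb. In the wider window the motif shares were 5.62% (NF-κB), 52.2% (NFAT), 16.5% (AP-1), 22.1% (E-box), 87.1% (SP1) and 17.7% (STAT), since more bases were searched. NF-κB pathway genes at members, a count added after seeing the data, numbered 1 of 30 with fold enrichment and 9 to 15 otherwise. The sign of the median log2 ratio of curdlan over NT could not turn, because every setting took the peaks with the highest ratios. No paired analysis was possible because each condition has 1 library.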
